A study of Mus musculus with 19 samples.

Results

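The small nucleolar and Cajal body RNAs are short nuclear RNAs that guide the chemical modification of other RNAs. They were taken from a table of RNA from sorted astrocyte nuclei of the mouse cortex as all genes named Snord, Snora or Scarna followed by a digit, with a mean of at least 1 TPM, a read level corrected for gene length and library total, over 19 libraries. Of 119 genes with such names among 24537 in the table, 116 reached that mean, namely 71 Snord, 36 Snora and 9 Scarna genes. They were thus chosen by their mean TPM, and their levels are given below as a description. The remaining 3, Snord118, Snord14c and Snord14d, were listed at 0 in every library, and the members just above the minimum were Snord123 at 1.03, Snord93 at 1.24 and Snora35 at 1.37 TPM. Snord116, Snord116l1 and Snord116l2 held the same values in every library and are 1 measurement under 3 names.

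Box C/D RNAs, named Snord, direct ribose methylation and box H/ACA RNAs, named Snora, direct the isomerisation of uridine to pseudouridine, mostly in ribosomal RNA within the nucleolus. The Scarna RNAs do the same for spliceosomal RNAs within Cajal bodies. In mammals most of them lie inside introns of other genes, called host genes here, and are cut out of the spliced intron of the host transcript, which is often that of a ribosomal protein, a translation factor or a non-coding RNA. A nuclear library therefore holds both the mature small RNA and the unspliced host transcript that covers the same bases.

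The 4 genotypes were the double mutant (Fmr1 -/y, Smad4 fl/fl, GFAP-cre+, n = 4), Fmr1 KO (Fmr1 -/y, Smad4 fl/fl, GFAP-cre-, n = 5), Smad4 cKO (Fmr1 +/y, Smad4 fl/fl, GFAP-cre+, n = 6) and WT (Fmr1 +/y, Smad4 fl/fl, GFAP-cre-, n = 4). All mice were C57BL/6J, were reared normally and were 26 to 28 days old, and all groups, WT included, carried the floxed Smad4 alleles. Recombination was driven by Gfap-Cre73.12, and nuclei were sorted as SOX9+ NEUN- before ribosomal RNA depletion, so the libraries describe nuclear RNA only. Fmr1 loss models fragile X syndrome, and Smad4 carries signals of the TGF-beta and BMP family.

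The levels of the targeted genes did not fall with the labels. Fmr1 lay at 35.5 to 38.9 scaled TPM in libraries labelled double mutant and 36.6 to 41.7 in those labelled Fmr1 KO, above 20.6 to 26.9 in those labelled Smad4 cKO and 21.6 to 31.6 in those labelled WT. Smad4 overlapped in all groups, at 30.8 to 36.2, 31.2 to 34.8, 29.9 to 35.5 and 30.2 to 36.7 scaled TPM in the same order. Both values cover the whole gene, so they do not check a deletion within it, and group names below are the labels. The precursor of ribosomal RNA, Rn45s, took 15.6% to 23.1% of the listed TPM in the double mutant, 17.2% to 22.8% in Fmr1 KO, 21.3% to 35.1% in Smad4 cKO and 20.7% to 35.7% in WT. Astrocyte markers were high in every library, with 10 genes summing to between 5601 and 9809 scaled TPM. Summed over 8 genes, oligodendrocyte markers reached 750 to 3544 in the double mutant, 287 to 3052 in Fmr1 KO, 237 to 2850 in Smad4 cKO and 268 to 1424 in WT, with medians of 2575, 1155, 1147 and 949 in that order. The 12 neuron markers summed to 112 to 345 in the double mutant, 114 to 249 in Fmr1 KO, 61.5 to 213 in Smad4 cKO and 82.1 to 220 in WT. The 6 endothelial markers summed to 72.3 to 137.0 in the double mutant, 47.7 to 177.8 in Fmr1 KO, 133.2 to 308.8 in Smad4 cKO and 92.2 to 379.4 in WT. Among the markers of other cell types, Nefm rose and Pecam1, Flt1 and Tek fell with the Fmr1 label. None of these markers was at 0 in any library. In bulk nuclei, fewer cells of a type and less RNA per cell cannot be told apart, and the part of other cell types in the results was not tested beyond the alternatives named below.

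The sequences that the results turn on are printed here because several of them come in pairs that share a host gene. Whether the members of a pair differed in response was not tested. They are GENCODE vM21 transcripts on GRCm38, 5′ to 3′, with the D box letters CTGA and, where present near the start, the C box letters TGATGA in capitals for Snord, and the terminal ACA in capitals for Snora34, Snora2b and Scarna13. Capitals were set by a search for these letters alone, so a marked stretch, as in Snord15a, need not be the box itself. The first pair lies in Kansl2, a subunit gene of a histone acetyltransferase complex, and was 70.2% identical in alignment.
Snora34: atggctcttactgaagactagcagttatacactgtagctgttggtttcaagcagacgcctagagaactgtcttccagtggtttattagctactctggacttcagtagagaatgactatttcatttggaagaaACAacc
Snora2b: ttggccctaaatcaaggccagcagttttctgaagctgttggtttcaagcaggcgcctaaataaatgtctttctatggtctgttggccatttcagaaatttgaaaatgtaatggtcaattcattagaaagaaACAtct
The second pair lies in Rps3, a ribosomal protein gene, and was 65.6% identical.
Snord15b: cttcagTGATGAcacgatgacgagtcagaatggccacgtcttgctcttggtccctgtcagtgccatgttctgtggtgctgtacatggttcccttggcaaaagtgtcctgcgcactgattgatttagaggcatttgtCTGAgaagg
Snord15a: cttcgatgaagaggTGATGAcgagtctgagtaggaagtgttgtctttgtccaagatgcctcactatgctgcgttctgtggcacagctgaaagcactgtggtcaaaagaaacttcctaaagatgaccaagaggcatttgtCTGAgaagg
The third pair lies in Nop56, which encodes a core protein of the box C/D particle itself, and was 51.3% identical.
Snord57: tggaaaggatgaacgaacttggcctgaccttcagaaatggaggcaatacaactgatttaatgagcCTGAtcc
Snord110: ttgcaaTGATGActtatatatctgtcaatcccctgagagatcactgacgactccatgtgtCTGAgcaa
Snord17 of Snx5 and Scarna13 of the non-coding gene Snhg10 are the longest that stood far above their hosts.
Snord17: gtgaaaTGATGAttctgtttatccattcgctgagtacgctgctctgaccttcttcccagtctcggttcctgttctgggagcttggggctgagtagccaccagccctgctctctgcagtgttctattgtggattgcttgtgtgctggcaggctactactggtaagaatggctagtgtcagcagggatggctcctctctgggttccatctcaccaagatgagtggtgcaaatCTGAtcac
Scarna13: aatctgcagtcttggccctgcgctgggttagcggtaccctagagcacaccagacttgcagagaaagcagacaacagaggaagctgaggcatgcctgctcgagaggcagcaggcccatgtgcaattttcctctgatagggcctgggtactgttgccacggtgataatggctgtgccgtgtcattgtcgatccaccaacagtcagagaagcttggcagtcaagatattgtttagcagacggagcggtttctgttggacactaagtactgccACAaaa

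On GRCm38, Snora34 lies at chr15:98519716-98519853 on the minus strand and Snora2b at chr15:98526346-98526482 on the same strand. Snord57 lies at chr2:130278016-130278087 on the plus strand, Snord17 at chr2:144265979-144266216 on the minus strand, Snord15b at chr7:99479563-99479707 on the minus strand and Scarna13 at chr12:105031075-105031349 on the minus strand. Over all members with a sequence, the letters TGATGA occurred in the first 20 bases of 44 of 69 Snord sequences and CTGA in the last 20 bases of 67, against 21.3% and 34.8% of all 1558 GENCODE genes of these classes. The letters ACA occurred in the last 8 bases of 32 of 34 Snora sequences, against 47.6% of the same 1558 genes. The 1558 genes pool all these classes, the members among them, and the boxes define the classes. The excess therefore follows from the naming. Only the annotated strand was searched.

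**Figure D1:**
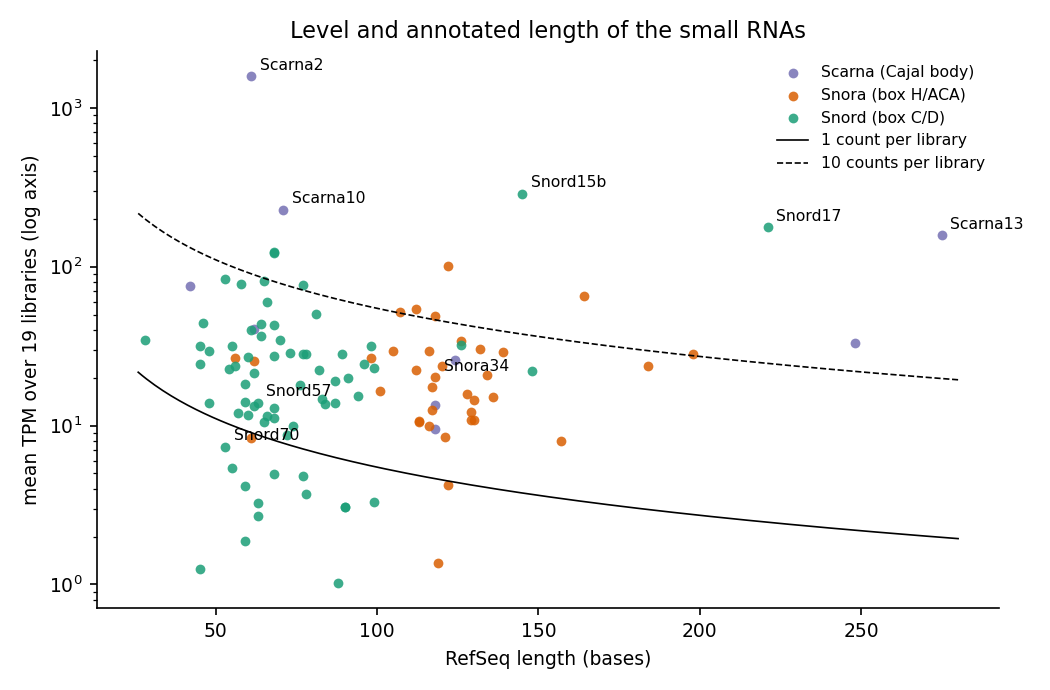
Mean TPM over 19 libraries (log axis) against RefSeq length in bases for 115 small RNAs, coloured by class, with lines for the TPM that 1 and 10 counts per library give at each length. Most points lie between the lines, and Scarna2, Snord15b, Scarna10, Snord17 and Scarna13 stand well above them.

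The levels rested on very few reads. TPM multiplied by the RefSeq length less 1 base came out as a whole multiple, to within 0.05, of 1 constant per library in 1449 of 1471 values of up to 10 counts (98.5%), and 109 members were whole in every library. In 71 bases, 1 count was worth between 4.66 and 9.87 TPM depending on the library. In these units the median member had 3.21 counts per library, with 17 members below 1, 63 from 1 to 5, 19 from 5 to 10, 12 from 10 to 50 and 4 above 50. In all, 82 of the 116 were at 0 in at least 1 library and 34 in none. Between libraries of one genotype the variance of these counts was a median of 1.70 times their mean over 109 members. Counting error alone gives a value near 1 at equal depth, and these counts are not adjusted for depth. On the log2(scaled TPM + 1) scale the median SD within a genotype was 1.44 for the members and 0.215 for the other genes tested. Among genes of at least 100 TPM it was 0.630 against 0.211. Genes of like TPM are not alike in counts, since a short RNA has fewer counts than a long gene at the same TPM.

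Scarna2 had by far the highest mean TPM of the members. This RNA, known in human cells to guide methylation of a spliceosomal RNA, has no annotated host and lies on its own at chr3:108554338-108554751. It gave 110 to 182 counts in the double mutant, 107 to 219 in Fmr1 KO, 139 to 239 in Smad4 cKO and 115 to 384 in WT, and these ranges overlapped. At a mean of 1586 TPM it made up 29.9% of the TPM of all members. The table's TPM divides by a short annotated length of 61 bases, whereas the GENCODE gene has 414, so its rank by TPM depends on that length, while by counts it also led, at a mean of 185 per library. Snord15b at 289 TPM, Scarna10 at 229, Snord17 at 177 and Scarna13 at 157 came next. These 5 members together made up 46.0% of the TPM, and the first 10, with Snord53, Snord2, Snora28, Snord37 and Snord47, made up 55.6%. The median member stood at 22.1 TPM. Over 115 members, RefSeq length had a Spearman rho of 0.011 with mean TPM and 0.39 with mean counts. The TPM already divides by that length. The 3 members over 200 bases had a median of 157 TPM, against 21.6 TPM for the shorter ones.

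All members together made up 0.695% to 0.814% of the listed TPM in the double mutant, 0.681% to 1.01% in Fmr1 KO, 0.693% to 0.875% in Smad4 cKO and 0.659% to 0.867% in WT. The groups overlapped throughout. By class, the Snora sum averaged 1002 ± 126 TPM in the double mutant, 931 ± 193 in Fmr1 KO, 792 ± 55.1 in Smad4 cKO and 827 ± 100 in WT (SD, n = 4, 5, 6 and 4). The Snord sum averaged 2141 ± 176, 2270 ± 444, 2246 ± 197 and 2351 ± 246 TPM in the same order. The Scarna sum, which is mostly Scarna2, averaged 1869 ± 329, 2405 ± 637, 2114 ± 373 and 2260 ± 523 TPM.

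The small RNAs were then set against the genes that hold them. The deposited values covered whole gene bodies, introns included. For 19014 genes whose span was over 1.5 times their transcript length, low values were whole counts in 71.9% of 31474 values with the gene span as the length and in 10.1% of 70377 with the spliced length, near the share that a tolerance of 0.05 gives to arbitrary values. A host's value therefore includes the reads over its small RNA, and these were taken out before the pair was compared. The ratio given below is the member's TPM over the TPM of the rest of its host gene, so that a ratio of 1 means that reads lay over the small RNA as densely as over the host gene in general. Levels and ratios rest on RefSeq lengths, some shorter than the GENCODE sequence. These were 53 against 87 bases for Snord70, 66 against 90 for Snord12 and 118 against 138 for Snora34. Snord15b (145) and Scarna13 (275) matched. Scarna10 and Scarna9 had RefSeq lengths of 71 and 42 bases.

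Most small RNAs did not stand above their host in read density. How fully RNAs this short were recovered in the libraries was not tested. The ratios and the ranks by level therefore describe reads, not amounts in the nucleus. Of 101 members with a host of known length, 33 had a ratio over 1, 68 were below it, and the median was 0.715. The ratio was over 2 for 8 members and over 4 for 5. All 6 Scarna genes with a host were above it, with a median of 2.66, while 7 of 32 Snora genes and 20 of 63 Snord genes were. Reads from the mature small RNA and from the unspliced host over the same bases cannot be told apart in these values. Of 104 members with a host, 48, Snord15b among them, overlapped an exon of some annotated host transcript. Spliced host reads may lie over these as well. Of 102 whose host transcript listed with the deposited values was matched, 2 overlapped its exons. No source used here states whether strand was used in counting, so reads of an antisense transcript over the same bases cannot be told apart either.

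**Figure D2:**
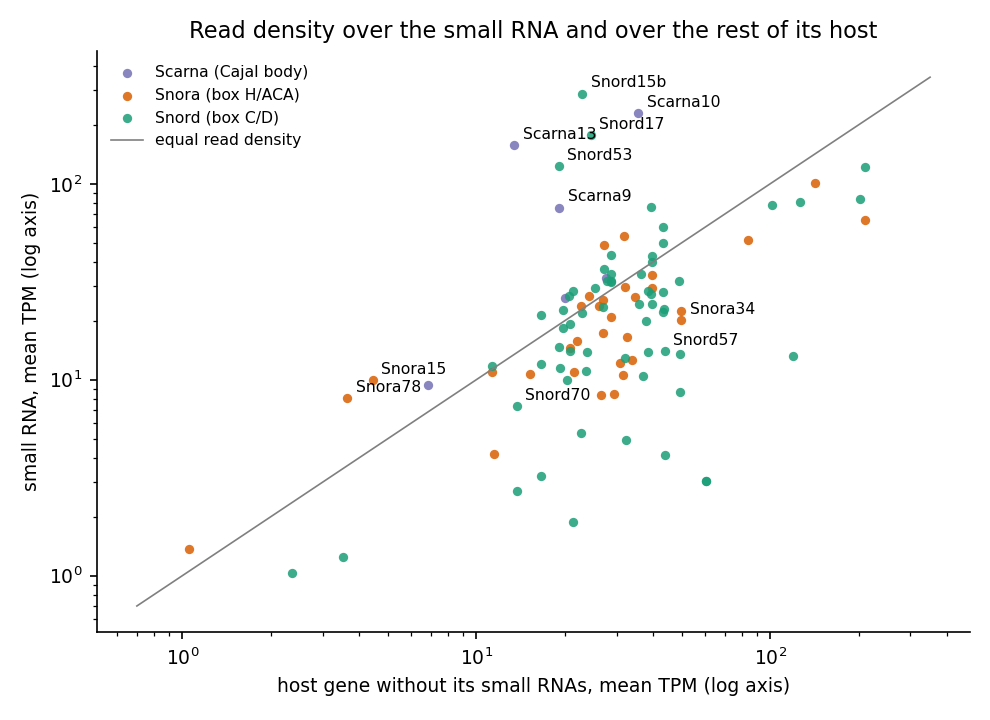
Mean TPM of 101 small RNAs against the mean TPM of the rest of their host gene over 19 libraries (both log axes), coloured by class, with a line of equal read density. Snord15b, Scarna13, Snord17, Snord53, Scarna10 and Scarna9 stand far above the line, while 68 of the points, Snora34, Snord57 and Snord70 among them, lie below it.

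A small set stood above the host in all 19 libraries, and it held Snord15b, Scarna13, Snord17, Snord53 and Scarna10. Snord15b, whose human counterpart guides methylation of the large ribosomal RNA, averaged 289 TPM against 22.9 TPM for the rest of Rps3, a ratio of 12.6. Its partner in the same host, Snord15a, stood at 21.9 TPM, so that 2 neighbours of one transcript differed 13.1-fold. Scarna13, which in human guides pseudouridine formation in spliceosomal RNAs, averaged 157 TPM against 13.5 for the rest of Snhg10 and held 69.8% of that gene's counts. Snord17 averaged 177 TPM against 24.5 for the rest of Snx5, a sorting nexin gene, a ratio of 7.21. Snord53 averaged 123 TPM against 19.1 for the rest of Wdr43, whose product acts in ribosome biogenesis, while Snord92 in the same gene stood at 14.7 TPM. Scarna10 averaged 229 TPM against 35.6 for the rest of the condensin gene Ncapd2, a ratio of 6.44. Scarna9 in Cep295 had a ratio of 3.94 and was above its host in 16 of 19 libraries, Snora15 in Cct6a had 2.23 in 15 libraries, and Snora78, which held 55.3% of the counts of Snhg9, had 2.21 in 14. Snora15 and Snora78 rested on means of only 2.11 and 2.37 counts per library. The whole of Snhg9 had a mean of 4.32 counts and was at 0 in Smad4 cKO replicate 3.

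The ribosomal protein hosts, which are a classic home of box C/D RNAs, held 34 members, of which 14 stood above the value of the whole host gene. In Rpl13a, Snord34, Snord32a, Snord35a and Snord33 lay between 22.2 and 59.8 TPM, and in Rpl23a, Snord4a, Snord42a and Snord42b lay between 31.5 and 34.7 TPM with the rest of the gene at 28.7. The 24 members in non-coding hosts, which include the growth-arrest gene Gas5 and several Snhg genes, had a median of 11.8 TPM, against 25.3 TPM for those in ribosomal protein genes and 77.7 TPM for the 7 in translation factor genes. None of those 7 was above its host.

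A member's level followed the host weakly from library to library. The median Pearson r between log2 levels of a member and the rest of its host over 19 libraries was 0.16 for 101 members, and 0.23 for the 14 with at least 10 counts. Over the whole host, which includes the member's own reads, it was 0.23 and 0.41. The points share library and genotype. For Scarna13, r with Snhg10 was 0.96 over the whole gene and 0.26 over the rest of it, so the high value came with the shared reads. For Scarna10, r was 0.88 over the whole of Ncapd2 and 0.87 over the rest. Scarna10 ranged over 8 to 43 counts in the double mutant, 9 to 71 in Fmr1 KO, 16 to 38 in Smad4 cKO and 8 to 51 in WT.

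The genotypes were compared on log2(scaled TPM + 1) with limma across 15049 genes, and p-values were adjusted by the Benjamini-Hochberg method over all of them within a comparison. A difference is tested genotype minus its control, and at few counts it is not the fold of the group means, since the pseudocount shrinks it and libraries at 0 can widen it. Snord64 in Smad4 cKO against WT, for example, had a log2 difference of 2.86 with mean counts of 4.67 and 2.5. With the Fmr1 KO label, averaged over both Smad4 genotypes, 1 of the 116 members was called, a rise, at an adjusted p under 0.05, which is 0.862% of them, against 1.53% of all genes tested (230 genes, 45 higher and 185 lower). The member was Snora34, and 6 members against 13.2% of all genes had an unadjusted p under 0.05. In the double mutant against Smad4 cKO the same gene was again the 1 member called, against 0.0199% of all genes tested (3 genes), with 9 members and 7.56% of all genes at an unadjusted p under 0.05. In Fmr1 KO against WT limma called no member and 0% of all genes, with 4 members and 8.23% of all genes at an unadjusted p under 0.05.

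Snora34 was highest in the double mutant. Its counts there were 9, 9, 12 and 8, against 2, 5, 4, 2 and 6 in Fmr1 KO, 2, 3, 1, 3, 1 and 1 in Smad4 cKO and 4, 6, 4 and 3 in WT. In scaled TPM all 4 double mutant libraries lay above all others, WT lay above Smad4 cKO, and Fmr1 KO overlapped both of these. As group means these were 42.2 ± 3.50 in the double mutant, 18.7 ± 9.75 in Fmr1 KO, 8.23 ± 4.03 in Smad4 cKO and 16.9 ± 0.411 in WT (SD, n = 4, 5, 6 and 4). The log2 difference was 2.34 ± 0.31 (SE) in the double mutant against Smad4 cKO (limma, adjusted p = 0.0127), and 1.17 ± 0.22 for the averaged Fmr1 label (adjusted p = 0.0186). The averaged value is the mean of that first difference and the one in Fmr1 KO against WT. In the latter no member was called, and Snora34 averaged 18.7 and 16.9 scaled TPM in overlapping groups. Libraries labelled Fmr1 -/y differed from Fmr1 +/y by 1.38 on postnatal day 26 and 1.26 on day 27, without weighting for the Smad4 genotypes, whose mix differed by day. Without any 1 of the 4 double mutant libraries the first call was lost, with adjusted p between 0.0567 and 0.0769, as it was with the compared groups fitted alone (adjusted p = 0.111), and without double mutant replicate 2 the second had an adjusted p of 0.05004. Without the library of highest neuron marker score in each group the first difference was 2.22 with an adjusted p of 0.177, and the second was 1.22 with an adjusted p of 0.0231. In that first comparison, 12 of 12 neuron markers (median 0.62), 8 of 8 oligodendrocyte markers (median 0.87) and 0 of 6 endothelial markers (median -0.91) had a log2 difference above 0, none of them past the threshold. With the neuron marker score as a term Snora34 differed by 2.62 (adjusted p = 0.00298), and the part of the other markers was not tested.

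The spread behind these calls was narrower than counting error. Within genotypes the variance of Snora34 counts was 0.478 of their mean, and 11 of 109 members were below 1. The double mutant mean of 9.50 counts has a 95% exact Poisson interval of 6.72 to 13.0, and those of 3.8 in Fmr1 KO, 1.83 in Smad4 cKO and 4.25 in WT have intervals of 2.29 to 5.93, 0.915 to 3.28 and 2.48 to 6.80. These intervals cover counting error only and are not adjusted for depth. In 71 bases, 1 count was worth between 4.66 and 9.87 TPM depending on the library. The double mutant interval does not meet those of Smad4 cKO and Fmr1 KO and does meet the upper end of that of WT. Snora34 was singled out by its call on these same libraries, so the intervals are a description and not further support.

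Snora34 did not stand above its host gene in any library. The rest of Kansl2 was level across genotypes, at 50.2 TPM in the double mutant, 50.9 in Fmr1 KO, 49.1 in Smad4 cKO and 49.4 in WT. The ratio of Snora34 to it was 0.872 in the double mutant, 0.375 in Fmr1 KO, 0.163 in Smad4 cKO and 0.331 in WT. Kansl2 itself differed by -0.04 ± 0.04 (SE) with the Fmr1 label (limma, adjusted p = 0.777). Snora2b, the other small RNA of Kansl2, averaged 25.3 ± 10.7 scaled TPM in the double mutant, 21.8 ± 19.2 in Fmr1 KO, 20.8 ± 18.0 in Smad4 cKO and 22.7 ± 9.65 in WT, and the groups overlapped.

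**Figure D3:**
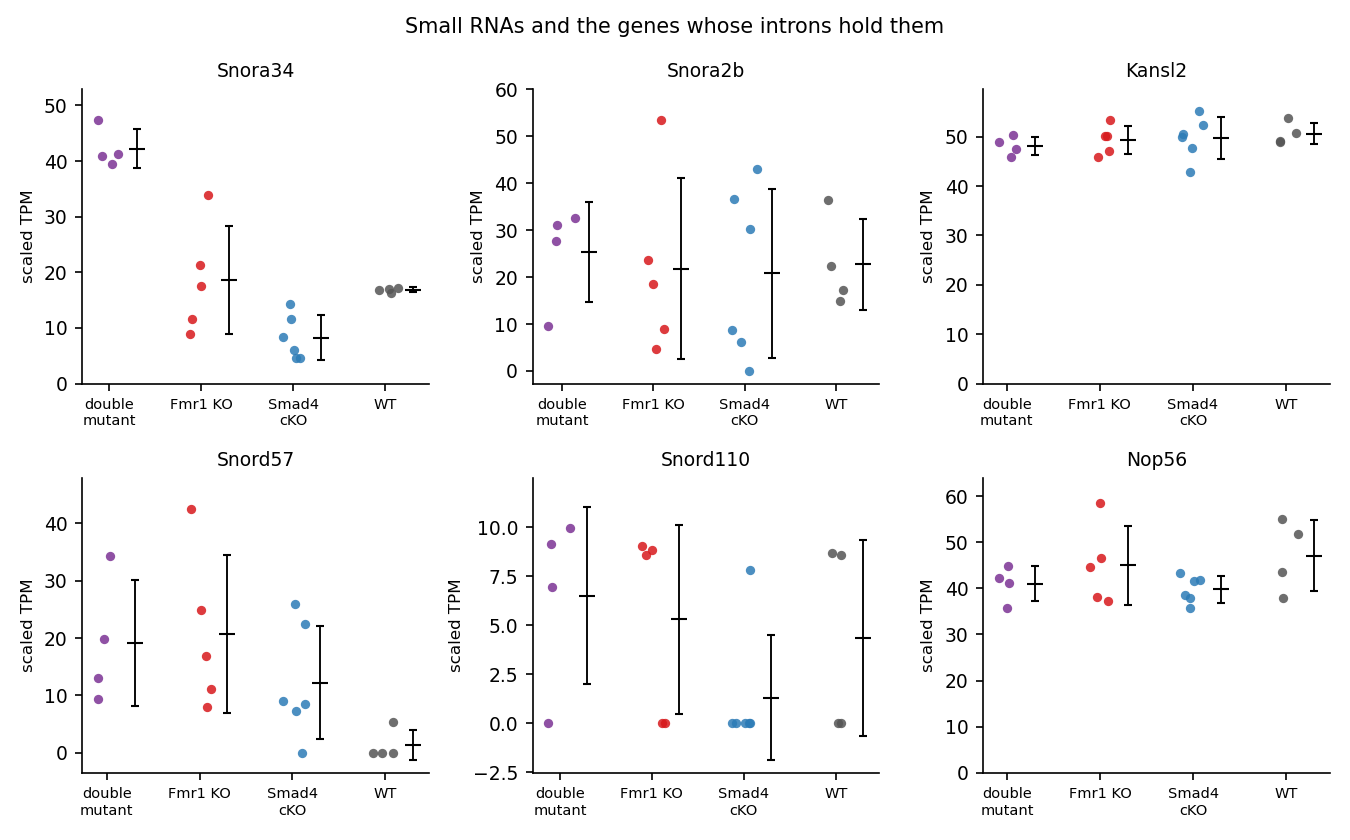
Scaled TPM per library of Snora34, Snora2b and their host Kansl2 (upper row) and of Snord57, Snord110 and their host Nop56 (lower row) by labelled genotype, with points for libraries and bars for the mean and SD. Snora34 is at 39.4 to 47.3 in the double mutant and at 4.54 to 14.4 in Smad4 cKO, while Kansl2 stays between 42.8 and 55.1 in all groups.

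Snord57 came next in order of p, with 1 count or none in WT. It gave 2, 4, 2 and 1 counts in the double mutant, 2, 1, 3, 1 and 4 in Fmr1 KO, 0, 1, 2, 1, 3 and 1 in Smad4 cKO and 0, 1, 0 and 0 in WT. Its log2 difference was 2.28 ± 0.56 (SE) for the averaged Fmr1 label (limma, adjusted p = 0.0508) and 3.51 ± 0.85 in the double mutant against WT (adjusted p = 0.0628). Over the alternatives these values ran from 0.90 to 3.795 (adjusted p 0.0318 to 0.181) and from 1.31 to 5.97 (adjusted p 0.0119 to 0.223). Snord57 also differed by 2.49 in Smad4 cKO against WT (limma, adjusted p = 0.222). In the double mutant against Smad4 cKO it differed by 1.02 (limma, adjusted p = 0.80). The low group was thus WT, and not both groups labelled Fmr1 +/y. The WT mean of 0.250 counts has a 95% exact Poisson interval of 0.00633 to 1.39, without adjustment for depth. It meets the intervals of the other 3 groups. Nop56, its host, averaged 41.0 ± 3.799 scaled TPM in the double mutant, 45.0 ± 8.56 in Fmr1 KO, 39.8 ± 2.91 in Smad4 cKO and 47.1 ± 7.70 in WT. Snord110 of the same host gave no more than 1 count in any library.

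Snord17 was the abundant member with the smallest p for the Fmr1 label. Its counts were 34, 20, 53 and 73 in the double mutant and 67, 51, 30, 41 and 34 in Fmr1 KO, against 64, 84, 59, 162, 23 and 135 in Smad4 cKO and 153, 115, 93 and 146 in WT. In scaled TPM the Fmr1 KO libraries lay below the WT libraries, the double mutant overlapped WT in its highest library, and Smad4 cKO spanned both. The means were 108 ± 60.01 in the double mutant, 115 ± 33.0 in Fmr1 KO, 210 ± 107 in Smad4 cKO and 289 ± 117 in WT (SD). The log2 difference was -1.09 ± 0.32 (SE) for the averaged label and did not pass the threshold (limma, adjusted p = 0.110). Without Smad4 cKO replicate 5, which had the 23 counts, it was called, with an adjusted p of 0.0301. Its ratio to the rest of Snx5 was 4.53 in the double mutant, 4.93 in Fmr1 KO, 8.25 in Smad4 cKO and 11.0 in WT. Snx5 without it stood at 24.7, 23.8, 24.4 and 25.2 TPM in the same order. The Rn45s share, given above, was also lower in the groups labelled Fmr1 -/y, and its part in the Snord17 values was not tested.

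Snord15b and Scarna2 also stood lower in the double mutant without passing the threshold. Snord15b gave 21 to 63 counts in the double mutant, 32 to 121 in Fmr1 KO, 42 to 136 in Smad4 cKO and 63 to 129 in WT, with a log2 difference of -1.28 ± 0.43 (SE) in the double mutant against Smad4 cKO (limma, adjusted p = 0.478). Scarna2 differed by -0.28 ± 0.14 for the averaged Fmr1 label (adjusted p = 0.424). Scarna13 gave 58 to 151 counts in Fmr1 KO and 74 to 84 in WT, with a log2 difference of 0.61 ± 0.31 (adjusted p = 0.666). The groups overlapped in each of these 3.

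**Figure D4:**
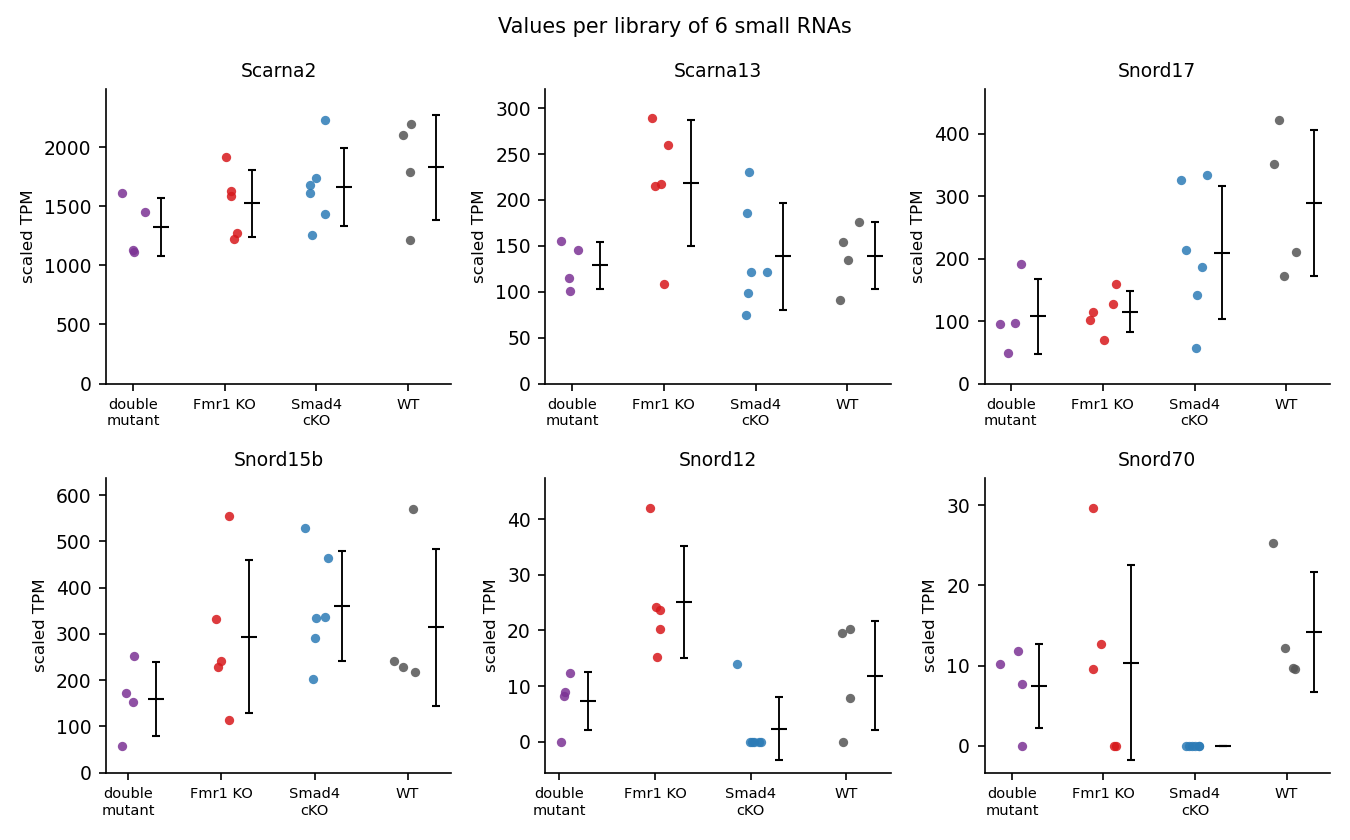
Scaled TPM per library of Scarna2, Scarna13, Snord17, Snord15b, Snord12 and Snord70 by labelled genotype, with points for libraries and bars for the mean and SD. Snord17 averages 108 in the double mutant and 115 in Fmr1 KO, against 289 in WT, Snord12 is at 0 in 5 of 6 Smad4 cKO libraries, and Snord70 is at 0 in all 6.

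The Smad4 cKO label changed no member past the threshold. With it averaged over both Fmr1 genotypes, limma called none of the 116 members, against 1.81% of all genes tested, and 10 members against 11.0% of all genes had an unadjusted p under 0.05. In Smad4 cKO against WT no member was called, against 0.784% of all genes, with 8 members and 8.28% at an unadjusted p under 0.05. In the double mutant against Fmr1 KO no member was called, against 0.405% of all genes, with 8 members and 5.48% at an unadjusted p under 0.05. In the double mutant against WT no member was called, against 0.957%, with 8 members and 12.0% at an unadjusted p under 0.05.

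For the averaged Smad4 label, Snord12 and Snord70 had the smallest p among the members that were lower. Snord70, in the intron of Nop58, another core protein gene of the box C/D particle, was at 0 in all 6 Smad4 cKO libraries. It gave 1, 1, 1 and 0 counts in the double mutant, 0, 1, 3, 0 and 1 in Fmr1 KO and 1, 4, 1 and 1 in WT. Its log2 difference was -1.83 for the averaged Smad4 label (limma, adjusted p = 0.194). The double mutant and Fmr1 KO had mean counts of 0.75 and 1.0. The difference in Smad4 cKO against WT alone missed the threshold (limma, adjusted p = 0.0511). A count of 0 over 6 libraries leaves a 95% upper limit of 0.615 counts per library, against an interval of 0.704 to 3.61 in WT. WT replicate 2 gave 4 of the 7 WT counts, and without it the WT mean is 1 count with an interval of 0.206 to 2.92, which overlaps that limit. None of these limits is adjusted for depth. Snord12, in the non-coding gene Zfas1, gave 0, 1, 2 and 1 counts in the double mutant, 3, 2, 3, 4 and 2 in Fmr1 KO, 0, 0, 0, 2, 0 and 0 in Smad4 cKO and 1, 4, 0 and 2 in WT. Its log2 difference was -2.20 ± 0.67 (SE) for the averaged Smad4 label (limma, adjusted p = 0.128). Snord22, which is needed for maturation of the small ribosomal RNA in Xenopus, lies in Snhg1 and gave 3 to 8 counts in the double mutant, 3 to 18 in Fmr1 KO, 1 to 10 in Smad4 cKO and 8 to 17 in WT. It differed by -1.51 ± 0.49 in Smad4 cKO against WT (adjusted p = 0.250).

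The less abundant Scarna genes rested on few counts and overlapped between genotypes. Scarna6 gave 10 to 18 counts in the double mutant, 9 to 35 in Fmr1 KO, 9 to 21 in Smad4 cKO and 9 to 18 in WT. Scarna3a gave 5, 3, 11 and 2 counts in the double mutant, 1, 3, 1, 1 and 2 in Fmr1 KO, 4, 6, 2, 3, 2 and 2 in Smad4 cKO and 1, 8, 2 and 1 in WT, and differed by 1.33 ± 0.47 (SE) on the log2 scale in the double mutant against Fmr1 KO (limma, adjusted p = 0.557). It is 85.7% identical to Scarna3b of Dcaf5, so reads may be shared between them, and Scarna3b gave 1 to 11, 2 to 14, 1 to 10 and 3 to 10 counts in the double mutant, Fmr1 KO, Smad4 cKO and WT. Scarna8 gave 0, 3, 1 and 2 counts in the double mutant, 5, 3, 3, 0 and 0 in Fmr1 KO, 0, 1, 0, 0, 3 and 2 in Smad4 cKO and 7, 3, 5 and 3 in WT, with a log2 difference of -2.57 ± 1.08 in Smad4 cKO against WT (adjusted p = 0.482). Scarna17 gave 0 to 14 counts and Scarna9 gave 0 to 18 over all libraries. Snord64, of the imprinted Snrpn region, gave 1, 8, 5 and 3 counts in the double mutant, 5, 1, 4, 3 and 3 in Fmr1 KO, 1, 6, 6, 5, 3 and 7 in Smad4 cKO and 0, 4, 6 and 0 in WT, and differed by 2.86 ± 1.04 in Smad4 cKO against WT (adjusted p = 0.355).

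No difference between the Smad4 effects in the 2 Fmr1 genotypes was called. The test of that interaction called no member and 0% of all genes. An unadjusted p under 0.05 was found for 7 of the 116 members and 1.66% of all genes, which is a larger share of the members. Snora34 had the smallest p among them, with an interaction of 2.34 ± 0.45 (SE, limma, adjusted p = 1.00). It differed by 1.27 ± 0.32 in the double mutant against Fmr1 KO (adjusted p = 0.158) and by -1.06 ± 0.31 in Smad4 cKO against WT (adjusted p = 0.170).

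**Figure D5:**
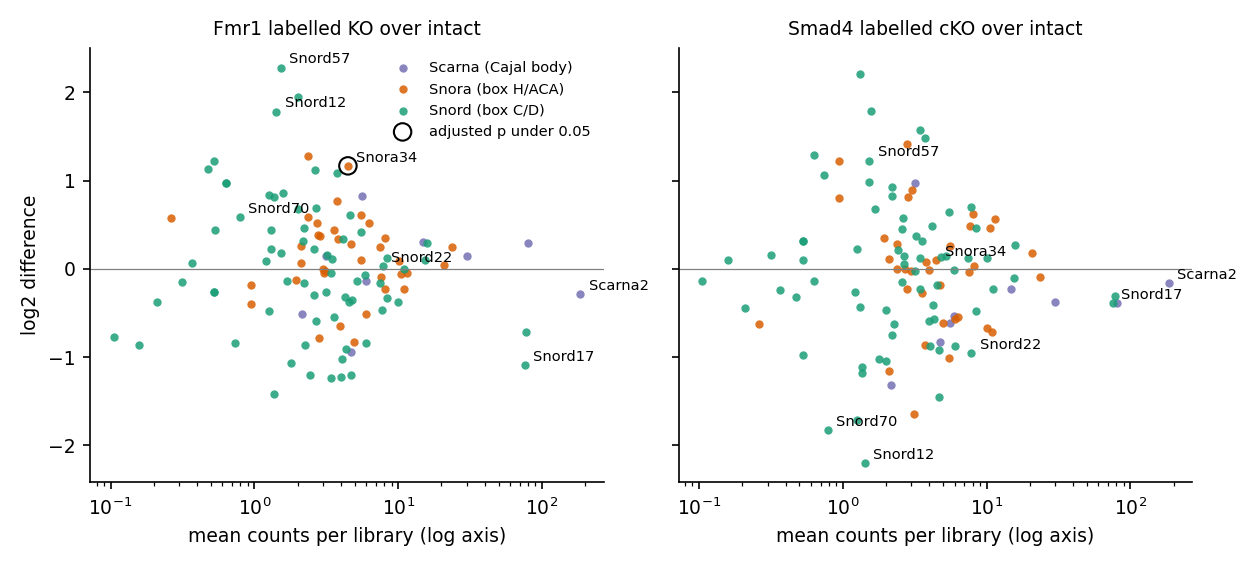
Log2 difference against mean counts per library (log axis) for the small RNAs, for the Fmr1 label averaged over Smad4 genotypes (left) and the Smad4 label averaged over Fmr1 genotypes (right), coloured by class. The differences fan out below about 10 counts, and 1 gene, Snora34 on the left, is ringed for an adjusted p under 0.05.

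As a group the members scattered around no change. For the averaged Fmr1 label their median log2 difference was 0.04, against 0.01 for all genes tested, with 60 of 116 members (51.7%) and 53% of all genes above 0. For the averaged Smad4 label it was -0.02, with 54 members (46.6%) and 48.4% of all genes above 0. The median standard error was 0.64 for members and 0.10 for all genes tested. By class, the 9 Scarna genes had a median of 0.14 for the Fmr1 label and -0.38 for the Smad4 label, with 5 and 1 of them above 0 and none called.

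No gene of the proteins that make and carry these RNAs was called. For neither averaged label did any of the 4 box C/D core proteins tested, the 4 of box H/ACA, the 11 assembly factors, the 14 Cajal body proteins, the 30 RNA polymerase I and nucleolar proteins or the 21 genes of 3′ processing and decay pass the threshold. The medians of these lists lay between -0.02 and 0.06 for the Fmr1 label and between -0.11 and -0.02 for the Smad4 label. For the Smad4 label, 1 of 4, 1 of 4, 0 of 11, 2 of 14, 7 of 30 and 7 of 21 of them had a difference above 0, in the order of the lists above, against 48.4% of all genes. For the Fmr1 label these counts were 3, 3, 5, 4, 21 and 13, against 53%. Of the 78 host genes none was called in any comparison, and their medians were 0.03 for the Fmr1 label and -0.05 for the Smad4 label. Snhg6, a non-coding host, was nearest, at 0.51 ± 0.13 (SE) for the Fmr1 label (limma, adjusted p = 0.0555). Among other structured nuclear RNAs, Neat1, the scaffold of paraspeckles, fell by 0.89 on the log2 scale with the Fmr1 label (adjusted p = 0.0164), at 352 ± 85.3 scaled TPM in the double mutant, 623 ± 165 in Fmr1 KO, 758 ± 203 in Smad4 cKO and 980 ± 143 in WT. Of 16 listed RNAs of ribosomal RNA cleavage, Snord14a and Snord22 were tested, and of 9 listed RNAs of imprinted loci, Snord64 and the 3 names of Snord116 were, and none was called for either label.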

How the data were processed

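RNA from sorted SOX9+ NEUN- cortical nuclei was sequenced after ribosomal RNA depletion in 19 libraries. The authors deposited 1 table of TPM values, named as such in the file header. Per the submitters' processing notes, bcl2fastq 2.20, MultiQC 1.0, STAR 2.5.3a and HOMER 4.10.4 were used with the mm10 genome, and their roles, settings and annotation are not given there. Raw depth is not stated. The whole counts behind the TPM were worked out as the report describes. They were used to show precision and single libraries, and to set members against the rest of their hosts, while limma was run on the TPM. The counts are not adjusted for depth. They depend on the RefSeq lengths used here, which matched 109 of 116 members in every library.

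Each library was scaled by a median-of-ratios factor (0.918 to 1.07), and log2(scaled TPM + 1) of the 15049 genes with a mean of at least 1 TPM was fitted with limma 3.58.1 (R 4.3.3) with a variance trend, genotype as the one term and all 19 libraries. P-values were adjusted by the Benjamini-Hochberg method within each comparison, with a threshold of 0.05. The labels call the libraries of a genotype biological replicates. The script recovered known changes in simulated data. Intervals of counts are exact Poisson at 95% and cover counting error only, without adjustment for depth. Sequences and positions come from GENCODE vM21, placing 113 members once.

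The members, lists and alternatives were chosen with earlier results of these data known. Genes named in the text are the 10 members of highest mean TPM, every Scarna gene with a result, the members of smallest p in each comparison, those next to the mean TPM minimum, role-list members with the smallest p or past the threshold, their hosts, and Rn45s, Fmr1 and Smad4. Snora15 and Snora78 of the host ratios, Snord92, and the other members given within shared hosts were named after their values were seen. Alternatives were another scaling, pseudocount or filter, day, marker score or replicate number as a term, the compared groups alone, library weights and each library left out. A pseudocount of 10 and leaving out the libraries of highest neuron marker score were added after seeing the data.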

Additional observations from a re-analysis of the deposited data

Results flagged for a closer look

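Single libraries stood apart from the others of their genotype in 11 of 100 groups of values tested. Of these, 7 are the one library above 0 in its group, which such a rule always flags, so the rate of about 1 in 20 that chance gives does not apply to them, and 4 are other values. In WT replicate 2, Snord57 reached 5.31 scaled TPM with the other WT libraries at 0, Snord11 reached 15.9 with the others at 0, and Snord70 reached 25.3 against at most 12.2 in the others. Snord11 was likewise the one value above 0 in double mutant replicate 4 (9.30), Fmr1 KO replicate 1 (16.9) and Smad4 cKO replicate 1 (7.89). In Smad4 cKO replicate 4, Snord110 reached 7.79 and Snord12 reached 13.9, with the other Smad4 cKO libraries at 0. Snord69 stood at 61.9 in Fmr1 KO replicate 3. Snord15b stood at 569 in WT replicate 4, against at most 242 in the other WT libraries. Snord22 was flagged for WT as well, where the highest value of 68.6 in replicate 1 lay far above the next, 43.9.

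The Snora34 differences with the Smad4 cKO label had opposite signs, 1.27 on the log2 scale in the double mutant against Fmr1 KO (limma, adjusted p = 0.158) and -1.06 in Smad4 cKO against WT (adjusted p = 0.170), and neither passed the threshold. The interaction did not pass the threshold (limma, adjusted p = 1.00 over 15049 genes).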

How the results depend on the processing

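Counts of called members moved only between 0 and 3, and none of the 80 differences rerun, 10 members in each comparison, changed sign under these alternatives. These were the higher and lower members of smallest p, so the choice itself made a kept sign likely. Signs of the other members were not compared. Host, marker and list genes, and Scarna8 in Smad4 cKO against WT, were not rerun. For the averaged Fmr1 label, 1 member was called as reported, 2 (Snora34 and Snord57) with TPM as deposited, library weights or a threshold of 0.1, and 0 with the replicate block. In the double mutant against Smad4 cKO, 1 was called as reported, and 0 with the replicate block, with the compared groups alone or without the libraries of highest neuron marker score. In Smad4 cKO against WT, 0 were called as reported and 1, Snord70, with a pseudocount of 0.1 or 0.5, day as a number or factor, the neuron marker score as a term, the compared groups alone or a threshold of 0.1. In the double mutant against WT, 0 were called as reported, 2 with TPM as deposited, the neuron marker score or a threshold of 0.1, and 1 with the compared groups alone or a pseudocount of 10. In the double mutant against Fmr1 KO, 0 were called as reported and 1, Snora34, with a pseudocount of 10. The causes were not tested. Leaving out 1 library gave 0 to 3 calls for the averaged Fmr1 label (0 without double mutant replicate 2, 3 without Smad4 cKO replicate 5: Snora34, Snord17 and Snord57), 0 to 1 in the double mutant against Smad4 cKO (0 without any 1 double mutant library), 0 to 1 in Smad4 cKO against WT (Snord57 without Smad4 cKO replicate 1, Snord70 without Fmr1 KO replicate 1, 3 or 4 or double mutant replicate 4), 0 to 1 for the averaged Smad4 label (Snord12 without WT replicate 3 or Smad4 cKO replicate 4), 0 to 1 in the double mutant against WT (Snord57 without WT replicate 2 or Smad4 cKO replicate 1) and 0 in the other 3 comparisons.

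The replicate numbers share only a number. Deviations of 25 same-numbered pairs of libraries correlated at a mean r of -0.016, 5 of them over 0.1, and 3 of 19 libraries correlated best with one of their own number. With the replicate block no member was called in any comparison, with adjusted p for Snora34 of 0.288 in the double mutant against Smad4 cKO and 0.0871 for the averaged Fmr1 label. Among the limits, the median member had 3.21 counts per library, and reads of the host transcript can cover the same bases.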
